A study of Mus musculus with 4 samples.

Results

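The interleukin 1 (IL-1) family and its receptors were followed in Dalton's lymphoma ascites (DLA) cells, a mouse tumour passed between animals and grown as loose cells in peritoneal fluid. The genes were chosen by name: the ligands Il1a, Il1b, Il18 and Il33, the receptor antagonist Il1rn, and the receptor chains Il1r1, Il1rap and Il1rl1. Of these 8 genes, 6 were paired with a probe set, 1 each, among 19938 genes tested, and Il1r1 and Il1rl1 were not analysed here. The irradiated group was 2 arrays of cells from male Swiss albino mice that bore the tumour and received whole-body electron radiation of 2 Gy on day 8 after transplantation, with cells harvested 48 h later. The control group was 2 arrays of cells from mice of the same strain that bore the same tumour and were not irradiated. No harvest day is given here for the control cells, so time after transplantation was not compared between groups. All mice were described as 4 to 5 months old. The labels call the arrays biological replicates without saying how many mice went into each, and the cells were taken from the peritoneal cavity with no sort described, so host cells may be among them.

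IL-1α and IL-1β are secreted or released cytokines that signal through the same receptor, IL-1R1, which needs the accessory chain IL-1RAP to recruit the adaptor MyD88 and switch on NF-κB and stress kinases. IL-1β and IL-18 are made as inactive precursors that caspase-1 cleaves in inflammasomes, whereas the IL-1α precursor is active without cleavage and is stored in many epithelial cells. The receptor antagonist encoded by Il1rn occupies IL-1R1 without signalling, and the decoy receptor IL-1R2 binds IL-1 without passing a signal on. IL-33, a nuclear alarmin, acts through the receptor encoded by Il1rl1 together with IL-1RAP.

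The promoters of Il1a, Il1b and Il1rn are shown because Il1a had the smallest p among the members, Il1rn the widest span over the arrays, and Il1b encodes the other agonist of the same receptor. Each run is the 250 bases before a transcription start in RefSeq (GRCm38.p6), 5′ to 3′ on the gene's strand, with matches to TATAAA and TGANTCA in capitals. The runs lie at chr2:129309973-129310222 (minus strand) for Il1a, chr2:129371140-129371389 (minus strand) for Il1b and chr2:24336610-24336859 (plus strand) for the most upstream of the 3 listed Il1rn starts.
Il1a: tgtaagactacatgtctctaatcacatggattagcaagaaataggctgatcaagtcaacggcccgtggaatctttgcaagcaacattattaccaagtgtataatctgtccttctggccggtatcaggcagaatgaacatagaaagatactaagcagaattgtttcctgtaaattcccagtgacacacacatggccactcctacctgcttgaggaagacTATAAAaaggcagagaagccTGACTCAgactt
Il1b: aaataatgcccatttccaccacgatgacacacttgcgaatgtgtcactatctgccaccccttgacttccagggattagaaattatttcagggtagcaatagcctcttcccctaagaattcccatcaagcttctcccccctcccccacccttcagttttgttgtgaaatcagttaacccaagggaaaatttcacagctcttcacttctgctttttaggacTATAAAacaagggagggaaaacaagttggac
Il1rn: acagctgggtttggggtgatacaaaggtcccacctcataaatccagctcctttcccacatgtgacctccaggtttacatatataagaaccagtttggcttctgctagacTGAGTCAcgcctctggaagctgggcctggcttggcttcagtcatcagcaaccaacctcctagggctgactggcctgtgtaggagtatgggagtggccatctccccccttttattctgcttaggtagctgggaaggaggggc
TATAAA is the core of the TATA box and TGANTCA the core that AP-1 proteins bind. Counting from −1 at the base before the start, Il1a held TATAAA from −32 to −27 and the TGANTCA form TGACTCA from −12 to −6. Il1b held TATAAA from −31 to −26 and no TGANTCA. The Il1rn run held TGAGTCA from −141 to −135. Both strands were searched, and the 2 motifs did not overlap in these runs. Over 13 such windows of the 8 genes, TGANTCA was found in these windows of Il1a and Il1rn alone, and in 6.75% of all 32851 promoter windows of the same length. The Il18 window, of a gene that also passed an unadjusted p, held no TGANTCA match. The TATAAA motif was in 12.4% of all windows, among them windows of Il1a, Il1b, Il18 and Il33. The NF-κB consensus, present in 7.25% of all windows, matched none of the printed runs and 1 window of Il1r1. A match is a run of letters and was not tested as a binding site.

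Each value was an RMA probe set intensity on the log2 scale, and a probe set's intensity cannot be read as a transcript level relative to another gene. As a guide to dim signal, 1027 odorant receptor genes, chosen after the values were seen as genes silent in most tissues, had a median intensity of 4.34 and a 95th percentile of 5.94. The irradiated arrays differed more from each other than the controls did, with an SD of the difference across genes of 0.362 against 0.167, and irradiated array 2 held 27 genes with a value 4-fold or more over the next highest array, against 0 on each of the others. Differences were tested with limma across all 19938 genes. With 2 arrays against 2, the smallest two-sided p of an exact permutation test on a single value is 0.333, so no such test was used. The label names a lymphoma. The 7 pan-leukocyte genes had a median intensity percentile of 41.9 among all genes and ran, by mean intensity, from Ptprc, at 5.57 and 5.49 on the irradiated arrays, against 5.63 and 5.64 on the controls, inside the odorant receptor range, to the actin-bundling gene Lcp1, at 11.78 and 11.96, against 11.19 and 11.30. The 10 epithelial and trophoblast markers had a median percentile of 74.2 and ran from Elf5, at 5.38 and 5.27, against 5.45 and 5.55, to the simple-epithelial keratin Krt8, at 13.93 and 13.30, against 14.07 and 14.11. The measured T cell and B cell markers, 8 and 6 genes, had median percentiles of 26.7 and 28. Bright and dim markers thus stood in both the leukocyte and the epithelial list, but not evenly. Krt8, Krt18, Krt19 and Krt7 stood at intensity percentiles from 98.1 to 99.9 and Epcam at 81. Gata3 (67.3), Cdx2 (63) and Tfap2c (50.7) were above the median, while Cdh1 (41.5) and Elf5 (26) were below it. Of the pan-leukocyte genes, Lcp1 (97.5) and Srgn (76.5) were bright, and the others lay at 44.7 or lower. The cells are called DLA cells, with no lineage implied.

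Il1a was the member with the smallest p. It measured 9.0 and 9.53 on irradiated arrays 1 and 2, against 8.39 and 8.35 on the controls. Both irradiated values were above both control values, and the controls lay within 0.04 of each other. The group means were 9.27 ± 0.37 and 8.37 ± 0.03 (log2, SD, n = 2 arrays each), a log2 difference of 0.895 with a standard error of 0.19 and a 95% interval of 0.41 to 1.38, or 1.86-fold. It passed an unadjusted p (limma, 0.00463) and ranked 269 of 19938 genes by p, but did not pass after Benjamini-Hochberg adjustment over all genes (limma adjusted p = 0.343). In each fit that left out an array the unadjusted limma p of Il1a stayed under 0.05, from 0.00104 to 0.046. Array 1 was 1.55-fold and array 2 was 2.23-fold above the control mean, so Il1a was higher in each irradiated sample taken apart.

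Il1b, the inducible and inflammasome-dependent ligand, did not share that pattern. Its intensities were 6.28 and 5.93 on the irradiated arrays, against 6.32 and 6.47 on the controls, close to the upper odorant receptor range. The groups did not overlap, but irradiated array 1 lay only 0.04 below the lower control. Its difference of −0.29 on the log2 scale had a standard error of 0.16 (95% interval −0.69 to 0.11, limma adjusted p = 0.577). A log2 increase of the size seen for Il1a lay outside this interval, though signal this dim limits what the interval can show.

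Il18, an inflammasome-dependent ligand that acts mainly on T and natural killer cells, was modestly higher. It measured 6.66 and 6.89 on the irradiated arrays, against 6.51 and 6.11 on the controls, which lay close to the upper odorant receptor range. The groups did not overlap, yet the controls differed from each other by more than irradiated array 1 differed from the nearer control. The difference of 0.465 on the log2 scale, standard error 0.18 (95% interval 0.02 to 0.91), passed an unadjusted limma p (0.043) and not the adjusted one (limma adjusted p = 0.476). That unadjusted call was lost when either irradiated array or control replicate 2 was left out (limma p from 0.0959 to 0.278), with differences from 0.265 to 0.58, and kept without control replicate 1 (0.665).

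Il33 was dim on all 4 arrays. It measured 4.53 and 4.50 on the irradiated arrays, against 4.42 and 4.58 on the controls, close to the odorant receptor median. The irradiated values fell between the control values, and the log2 difference was 0.015 (95% interval −0.29 to 0.32, limma adjusted p = 0.977).

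Il1rn, the antagonist, had the widest span of the measured members, and the span came from a single array. It measured 6.58 and 9.97 on irradiated arrays 1 and 2, against 6.14 and 6.44 on the controls, which lay close to the upper odorant receptor range. Irradiated array 2 stood 3.39 above every other array, whereas irradiated array 1 stood only 0.14 above the higher control. Array 2 was 12.8-fold above the control mean, and array 1 was 1.22-fold above it. The means were 8.28 ± 2.40 in irradiated and 6.29 ± 0.21 in control samples (log2, SD, n = 2 arrays each), a difference of 1.99 whose standard error was 1.03 (limma adjusted p = 0.565). The 95% interval ran from −0.60 to 4.57. Without irradiated replicate 2 the difference was 0.29, and without irradiated replicate 1 it was 3.68 (limma adjusted p = 0.125). By its gap over all other arrays, Il1rn ranked 9 of 19938 genes on irradiated array 2.

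Il1rap, the accessory chain shared by the receptors for IL-1, IL-33 and IL-36, was slightly lower. It measured 7.33 and 7.23 on the irradiated arrays, against 7.55 on each control. Both irradiated values were below the controls, by less than 1.5-fold. The difference of −0.27 on the log2 scale, standard error 0.11 (95% interval −0.55 to 0.01), missed both the unadjusted limma p (0.0592) and the adjusted one (limma adjusted p = 0.502). It passed the unadjusted limma p without irradiated replicate 1 (0.0229) and where genes below the median intensity were left out (0.0458).

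**Figure D1:**
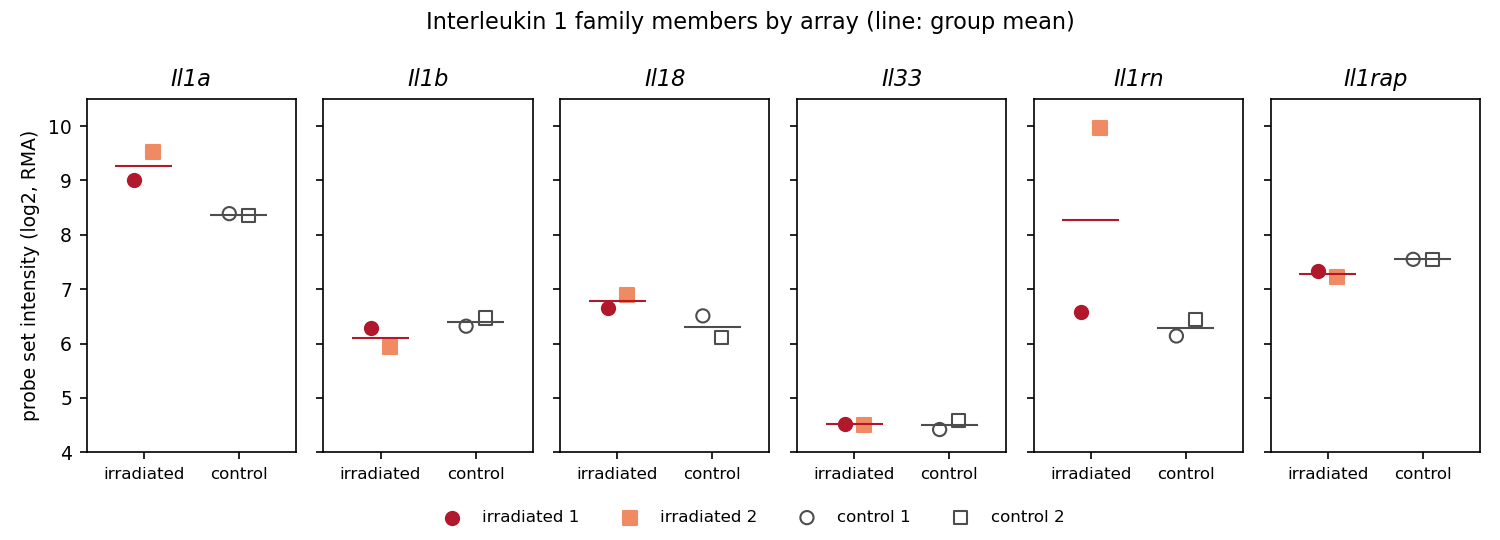
Probe set intensity (log2, RMA) of the 6 measured members on each array, irradiated at left and control at right in each panel, with a line at each group mean of 2 arrays. Il1a was higher on both irradiated arrays (9.0 and 9.53, against 8.39 and 8.35), while the Il1rn mean rested on irradiated array 2 (9.97, against 6.58 on irradiated array 1).

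Counted over the 6 measured members, 0 passed the limma adjusted p and 2 passed an unadjusted p of 0.05 (Il1a and Il18, both upwards), where 5.21% of all genes did so upwards and 5.1% downwards. Of all genes, 0.00502% passed the adjusted p upwards, which was 1 gene. Il1a alone passed an unadjusted p together with a 1.5-fold difference, where 1.7% of all genes did so upwards and 0.672% downwards. The groups did not overlap for 5 members. Of these, 3 were higher (Il1a, Il1rn and Il18), against 17.8% of all genes, and 2 were lower (Il1b and Il1rap), against 23.9%. Such non-overlap was common on these arrays, so it carries little weight for a member. On irradiated array 1 alone, 1 member (Il1a) was at least 1.5-fold above the control mean and above both controls, against 2.15% of all genes. On irradiated array 2 alone there were 2 (Il1a and Il1rn), against 4.87%. The median log2 difference of the members was 0.24, and that of all genes −0.03.

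**Figure D2:**
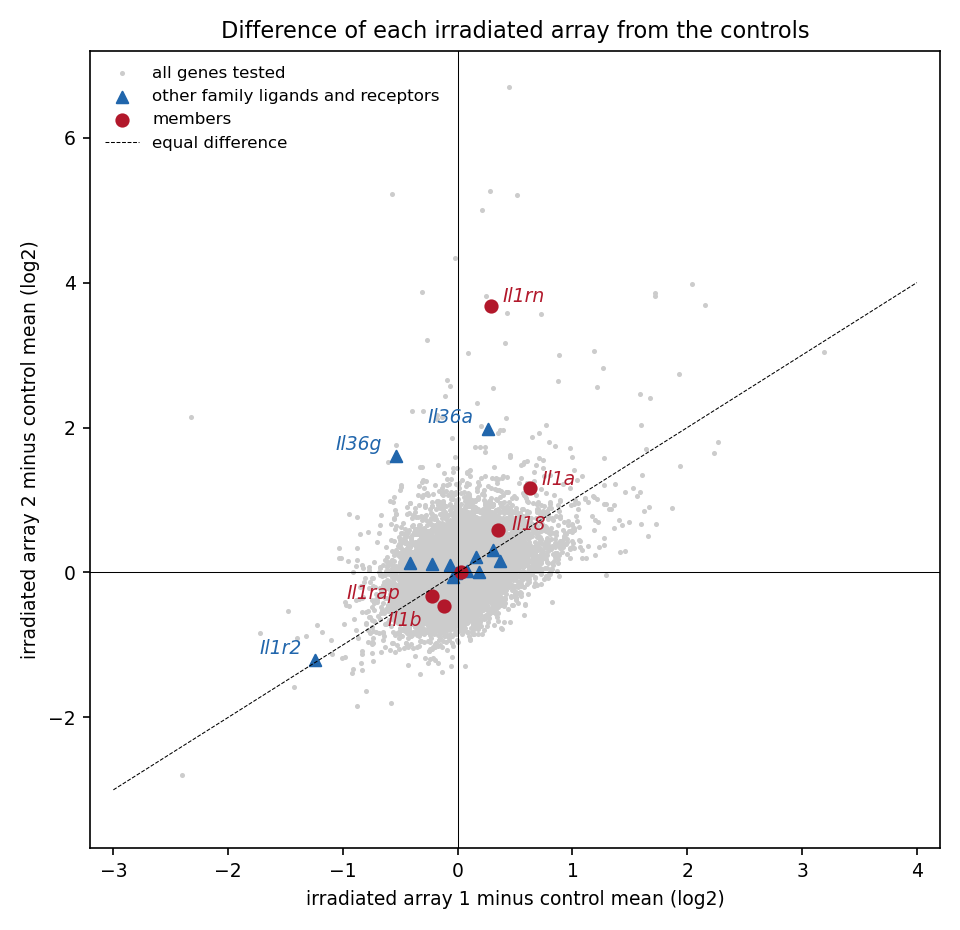
Difference from the control mean (log2) of irradiated array 1 on the horizontal axis and irradiated array 2 on the vertical axis, for all genes (grey), the members (red circles, Il33 unlabelled near the origin) and the other family ligands and receptors (blue triangles). Il1r2 lay on the line of equal difference (−1.24 and −1.21), Il1a above it (0.63 and 1.16), and Il1rn, Il36a and Il36g far above it.

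The within-array difference between the Il1rn and Il1a intensities was unlike in the irradiated samples, and is not a ratio of transcripts. It mainly followed the Il1rn value of 9.97 on irradiated array 2, against 6.58 on array 1. The Il1rn intensity minus the Il1a intensity was −2.42 and 0.44 on irradiated arrays 1 and 2, against −2.25 and −1.91 on the controls (log2). Relative to its control mean, this within-array value changed by −0.34 on array 1, where it lay below both controls, and by 2.52 on array 2, where it lay above both. The Il1a intensity minus the Il1b intensity was 2.72 and 3.6 on the irradiated arrays, against 2.07 and 1.88 on the controls, so these ligands differed unequally between groups on both arrays. These within-array values describe unequal differences and carry no test.

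The other ligands of the family were dim, and 2 IL-36 agonists were high on the same array as Il1rn. Of 6 listed ligands and binding proteins, all were measured, 0 passed an unadjusted limma p of 0.05, and the median difference was 0.005. Il36a, listed on the array under its older symbol Il1f6, measured 4.92 and 6.64 on the irradiated arrays, against 4.74 and 4.58 on the controls. Il36g, listed as Il1f9, measured 4.96 and 7.11, against 5.47 and 5.53. Both encode agonists of epithelial tissues, and both were high on irradiated array 2 alone, by 3.94-fold and 3.05-fold over the control mean (limma adjusted p = 0.538 and 0.80 over both arrays). They were named after their values were seen. Il36rn (Il1f5), the antagonist of the IL-36 receptor, was within 0.02 of the control mean on both irradiated arrays, and Il18bp, the soluble inhibitor of IL-18, differed by 0.02 over both arrays.

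Among 7 other family receptors, the decoy receptor Il1r2 stood apart. It measured 5.64 and 5.67 on the irradiated arrays (inside the odorant receptor range), against 6.86 and 6.90 on the controls (above that range). Its replicates lay within 0.04 of each other in both groups, and the groups did not overlap. It was lower by 2.34-fold, a log2 difference of −1.23 with a standard error of 0.11, the smallest unadjusted limma p in the pathway lists (5.9e-05), without passing over all genes (limma adjusted p = 0.193). Over the fits that left out an array each, its difference ran from −1.245 to −1.205. On the same arrays 6 of 12 neutrophil markers were lower at an unadjusted limma p of 0.05 with a 1.5-fold difference, and 1, Ly6g, was higher. By this rule 0.672% of all genes were lower and 1.7% higher. The lower markers were S100a8, S100a9, Retnlg, Cxcr2, Csf3r and Mmp8. Retnlg measured 5.12 and 4.72, against 7.19 and 7.85, and its difference of −2.6 was the lowest of all genes (limma adjusted p = 0.193). Ly6g measured 12.04 and 11.89, against 8.87 and 8.82, 8.69-fold higher and the 1 gene past the adjusted p over all genes (limma adjusted p = 0.0117). The summed intensity of the 12 markers was 4710 and 4320, against 1270 and 1420, and that of the 11 without Ly6g, left out after its value was seen, was 499 and 520, against 800 and 971. The part of these markers in the Il1r2 difference was not tested. Il18r1, the ligand-binding chain of the IL-18 receptor, was 0.31 higher (unadjusted limma p 0.0387) at a dim 5.50 and 5.51, against 5.14 and 5.25. That unadjusted call was lost without irradiated replicate 2 (limma p 0.0513) and without either control (0.239 and 0.12). The other 5 receptors did not pass an unadjusted p, and 0 of 7 passed upwards with a 1.5-fold difference.

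The inflammasome and IL-1 processing genes gave no shared direction. Of 19 measured, 9 were higher and 10 lower, where 8769 of all 19938 genes were higher and 11166 lower. The median difference was −0.025, against −0.03 for all genes, and 0 passed an unadjusted limma p of 0.05 with a 1.5-fold difference. That count was 1 with a trended prior and with quantile normalization, each time Casp1 (limma p 0.0496 and 0.045). It also rose when irradiated replicate 1 was left out, as did the count over all genes. Casp1, the protease that matures IL-1β and IL-18, measured 6.58 and 7.72 on the irradiated arrays, against 6.25 and 6.28 on the controls. Both irradiated values were above the controls, but array 2 carried most of the log2 difference of 0.885 (limma p 0.0538, limma adjusted p = 0.493), which fits of 3 arrays put at 0.315 with irradiated replicate 2 left out and at 1.455 with irradiated replicate 1 left out. Naip2, a sensor subunit of the NLRC4 inflammasome, was 0.515 higher (unadjusted limma p 0.0125), a call lost without either control (0.0955 and 0.079). Nlrp3, the sensor of the best-studied inflammasome, measured 5.63 and 5.21, against 5.52 and 6.01, and overlapped between groups.

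The signalling genes next to the receptor were nearly level. Of 22 listed, 19 were measured, and 6 were higher and 13 lower. Lower was also the more common direction over all 19938 genes (8769 higher and 11166 lower). Of the 19, 0 passed an unadjusted limma p of 0.05, and their differences ran from −0.27 to 0.185. Myd88, the adaptor of the receptors, measured 8.37 and 8.16 on the irradiated arrays, against 8.60 and 8.42 on the controls, a difference of −0.245 (limma adjusted p = 0.588). Irradiated array 1 lay 0.05 under the lower control, so the groups barely separated. Rela, the NF-κB subunit that activates transcription, measured 10.90 and 10.97, against 10.91 and 10.94.

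Genes known to be inducible by IL-1 were higher as a list. All 30 were measured, and 22 were higher and 8 lower, where 8769 of all 19938 genes were higher and 11166 lower. The median log2 difference was 0.658, against −0.03 for all genes. At an unadjusted limma p of 0.05 with a 1.5-fold difference, 14 were higher and 0 lower, where 1.7% and 0.672% of all genes were called, and 0 passed the adjusted p. The count was 12 without irradiated replicate 2, 17 without irradiated replicate 1, 7 without control replicate 1 and 7 without control replicate 2. Many of these genes also respond to other stimuli such as TNF, so the list is not specific to IL-1, and several of its members were already known to be high in these arrays when it was written.

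The members with the smallest p were Cxcl1 and Cxcl2, chemokines that attract neutrophils, Bcl3, a nuclear modulator of NF-κB, and Csf3, the granulocyte growth factor. Cxcl1 measured 9.60 and 10.42 on the irradiated arrays, against 7.75 and 7.60 on the controls. For Cxcl2 the values were 9.01 and 10.55, against 6.86 and 6.85. Each of these chemokines was at least 3.8-fold above the control mean on each irradiated array. Bcl3 was the most even of the 4, at 8.74 and 8.81, against 8.01 and 7.91. Csf3 measured 7.04 and 7.64, against 6.01 and 6.07. The limma adjusted p was 0.193 for Cxcl1, 0.259 for Cxcl2, 0.241 for Bcl3 and 0.259 for Csf3. All 4 were above both controls on both irradiated arrays, which their choice by smallest p makes likely and which adds no support. The same held for 19 of the 30 listed genes and 17.8% of all genes.

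Other listed genes, named after their values were seen, divided by array. Ccl2, a monocyte chemokine, measured 7.07 and 9.91 on the irradiated arrays, against 6.30 and 6.39 on the controls. Csf2, Lif, Mmp9 and Plau went the other way, with the higher irradiated value on array 1, as for Lif at 10.32 and 9.54, against 8.83 and 8.56. Lcn2, an iron-sequestering secreted protein that IL-1 induces strongly, measured 5.80 and 10.27, against 8.04 and 8.21, so its irradiated arrays lay on opposite sides of the controls. Il6, a classical IL-1 target, measured 2.78 and 2.85, against 2.88 and 2.77, below the odorant receptor median on all 4 arrays.

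**Figure D3:**
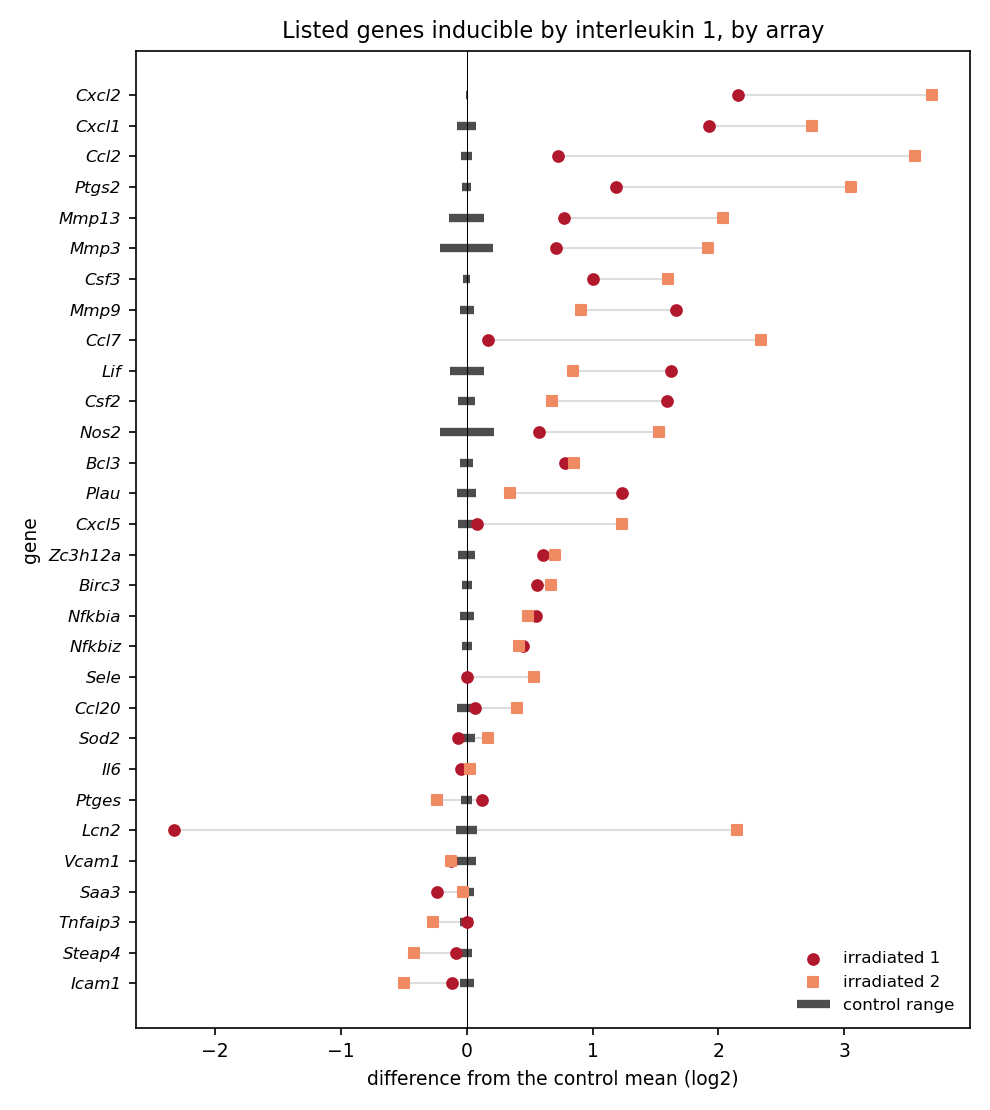
Difference from the control mean (log2, horizontal axis) of irradiated array 1 (circles) and irradiated array 2 (squares) for the 30 listed genes inducible by IL-1, with the range of the 2 controls as a dark bar. Cxcl1 and Cxcl2 were high on both irradiated arrays, Ccl2 mainly on array 2 (9.91, against 7.07 on array 1), and Lcn2 lay on opposite sides of the controls (5.80 and 10.27).

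For the members whose values spanned at least 1 on the log2 scale, Il1a and Il1rn, the genes with the most similar pattern were found by Euclidean distance over the 4 arrays after centring each gene on its control mean. Nearest to Il1a were Pcca (distance 0.063), Itga2 (0.095) and Tcirg1 (0.101). Itga2, for example, measured 8.4 and 8.83 on the irradiated arrays, against 7.69 and 7.66 on the controls. Nearest to Il1rn were Prl3d3 of the placental prolactin family (0.356), Usp17la (0.473) and Ccl2 (0.474). Prl3d3 measured 3.95 and 7.10, against 3.59 and 3.45. With 4 arrays this likeness is a description.

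**Figure D4:**
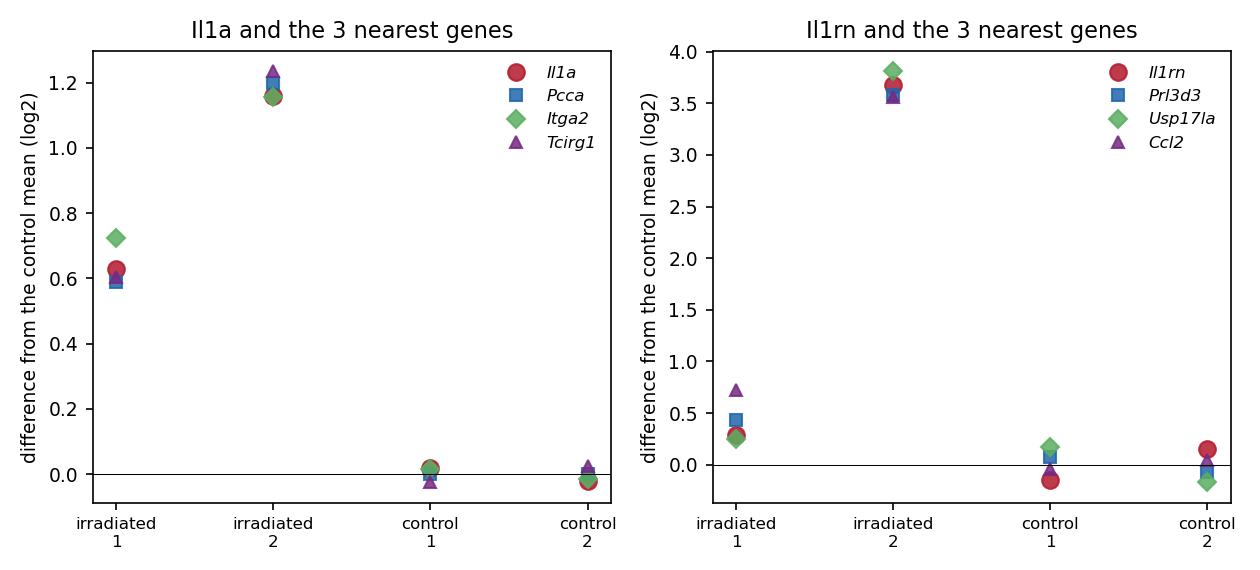
Difference from the control mean (log2, vertical axis) on each of the 4 arrays for Il1a (left) and Il1rn (right), each with the 3 genes at the smallest Euclidean distance. The genes near Il1a were above the controls on both irradiated arrays, and those near Il1rn stood out on irradiated array 2.

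Markers of cell types that make or bind IL-1, whether from host or tumour, were set beside these values. In bulk samples, fewer cells of a type and less RNA per cell cannot be told apart. All 12 monocyte and macrophage markers were measured. Their summed linear intensity was 1260 to 1370 on the irradiated arrays, against 1250 to 1270 on the controls, a sum led by Cd68. At an unadjusted limma p of 0.05, 2 were higher, Mrc1 and Lyz2, and 1 was lower, Csf1r, where 5.21% and 5.1% of all genes were called. The mannose receptor gene Mrc1 measured 6.92 and 6.98, against 6.09 and 6.01, 1.87-fold higher (limma p 0.000337, limma adjusted p = 0.201). Csf1r measured 5.96 and 5.78, against 6.52 and 6.26, 1.43-fold lower (limma p 0.0136, limma adjusted p = 0.411). The macrophage gene Adgre1 measured 4.31 and 4.14, against 4.27 and 4.17, below the odorant receptor median, while the lysosomal gene Cd68 was bright on all arrays at 9.04 and 8.84, against 8.98 and 8.98. The neutrophil markers are given with Il1r2. The 7 pan-leukocyte genes summed to 4120 to 4540, against 3320 to 3830, a sum led by Lcp1, whereas their mean log2 intensity was 7.09 and 7.03, against 7.31 and 7.43. Of these 7, 5 were lower, as were 11166 of all 19938 genes. Srgn and Cd52 were lower by an unadjusted limma p of 0.05 with a 1.5-fold difference, and Lcp1 was higher by the same rule. Of all genes, 0.672% were lower and 1.7% higher by it. The 10 epithelial and trophoblast markers summed to 33700 on irradiated array 1 and 21400 on array 2, against 41100 to 41500 on the controls. Krt8 and Krt18 stood at intensity percentiles 99.9 and 99.6, and this list was not read as host cells. No marker was at 0, since RMA intensities have no true zero. Whether the marked cells were host or tumour cells was not tested, nor was their part in the Il1a and Il1rn differences.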

How the data were processed

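Total RNA (300 ng) of DLA cells from 2 irradiated and 2 control samples was labelled with biotin and hybridised to one-colour arrays, per the labels' protocols. The deposited values were log2 intensities of 35556 probe sets made with RMA, per the submitters' processing notes. RMA equalises intensity distributions between arrays and so hides a shift shared by most genes. No version, genome build or scan date was at hand, and batches were not tested. The number of arrays limits the precision. Each limma p-value weighs a difference against the spread between these samples, pulled towards a spread common to all genes. That prior held 3.48 degrees of freedom, against 2 from the arrays.

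Probe sets with 1 symbol (21789) were named from the platform annotation, updated through Entrez identifiers in RefSeq (21698 found), and the brightest per gene was kept. List genes were matched by symbol or RefSeq synonym. The fit was limma 3.58.1 under R 4.3.3 (lmFit, eBayes, two-sided, Benjamini-Hochberg over 19938 genes, threshold 0.05), and also at an unadjusted p under 0.05 with a 1.5-fold difference. The procedure was tested on simulated data.

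The members, lists and tests were chosen with earlier results of these data known. Named were all members, up to 4 genes per list with the smallest unadjusted p under 0.05, Il1r2, Casp1, Nlrp3 and Myd88, and the 3 genes most like each member spanning at least 1 log2 unit. Odorant receptor genes, marker genes, Rela and other genes were added after their values were seen. Alternatives were other eBayes priors, quantile normalization, median centring, filters on dim genes, probe set rules, a replicate block, a fold of 2 and each array left out.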

Additional observations from a re-analysis of the deposited data

How the results depend on the processing

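All 6 measured members kept their direction in every alternative run that tested them, except Il33, whose difference was −0.065 without control replicate 1 and 0.095 without control replicate 2, and 0 passed the limma adjusted p in any. Filters on dim genes left Il33 untested, and the stricter filter Il1b and Il18 too. Replicate numbers were shared between groups without evidence of pairing (correlation of same-numbered deviations across genes 0.068). With the replicate block, 0 genes passed the adjusted threshold, against 1 without it, and 1 member passed an unadjusted p, against 2. Under this block Il18 (limma p 0.0821) and Il18r1 (0.0605) missed the unadjusted p and Casp1 passed it (0.0477). Leaving out an array each gave 0 genes past the adjusted threshold, 315 to 1558 past the unadjusted p with 1.5-fold (473 with all arrays), 1 to 2 members past that rule and 1 to 4 past the unadjusted p alone. In fits that leave 1 array in a group, that array is assumed to vary like the other group. Over the same fits Il1a ran from 0.63 to 1.16, Il1b from −0.465 to −0.115, Il1rn from 0.29 to 3.68, Il1rap from −0.32 to −0.22 and Il18 from 0.265 to 0.665 (log2), the genes inducible by IL-1 had 7 to 17 higher and 0 to 1 lower, and their median ran from 0.5575 to 0.7225. At a fold of 2 in place of 1.5, 92 genes and 0 members passed the unadjusted rule. Signal near or inside the odorant receptor range limits what Il1b, Il33 and the size of the Il1r2 difference can show. The same limit holds for the size of the Il18 and Il1rn differences, whose controls measured 6.51 and 6.11, and 6.14 and 6.44.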
